A study of Cavia porcellus with 35 samples.

Results

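The response to antenatal synthetic glucocorticoid (sGC) shared by the F1 and F3 generations was measured in the prefrontal cortex of 16 juvenile female guinea pigs, of 35 animals in the whole series. Members were the gene symbols listed in both the F1 and the F3 count tables, 11237 symbols out of 11478 in the F1 table and 11651 in the F3 table, and the measure was the average difference between Beta (sGC) and Control (saline) animals with generation as a covariate. F1 animals had been carried by mothers given 3 courses of betamethasone or saline late in gestation. F3 animals descend from the same treatment through the paternal line, by F1 and then F2 males mated with untreated females. Each generation held 4 Beta and 4 Control females at postnatal day 40, 1 per litter, and only animals with enough RNA of good quality had been sequenced. The tissue was punched from the cingulate and infralimbic areas, so each library is a mixture of cell types, and each table holds a single generation, so that generation and table cannot be told apart.

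Betamethasone is a long-acting synthetic glucocorticoid that crosses the placenta and acts through the glucocorticoid receptor, a nuclear receptor that switches genes on and off directly. It is given to women at risk of preterm delivery to mature the fetal lung. The prefrontal cortex is rich in glucocorticoid receptors and takes part in restraining the hormonal stress response. It is built of glutamatergic pyramidal neurons in layers, GABAergic interneurons and glia, and it lies close to the striatum, whose medium spiny neurons are GABAergic and carry dopamine receptors. F1 animals were exposed as fetuses, whereas F3 animals were not.

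Between 13908007 and 19551079 reads per animal were assigned to symbols, and the shared symbols held 97.8% to 99.4% of them. The protocol text in the labels names the paraventricular nucleus while the source names the prefrontal cortex. The summed level of the 5 hypothalamic markers measured was 11.9 to 25.7 CPM (reads scaled to the size of the library), against 549 to 1519 CPM for deep layer pyramidal markers. Striatal markers were present and uneven: their summed level was 4377 CPM in F1 Control 1 and 3986 CPM in F1 Control 4, and 515 to 1778 CPM in the other 14 animals. List counts that moved by more than 1.5 times without these 2 animals are also given without them. In bulk tissue, fewer cells of a type and less RNA per cell cannot be told apart.

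Genes called on the average of F1 and F3 nearly all had the same sign in both generations, but few passed in each generation alone. Of 11212 symbols tested, 2388 (21.3%) passed a false discovery rate (FDR) of 0.05 by edgeR's quasi-likelihood test. Of these, 1383 (12.3% of those tested) were higher in sGC animals and 1005 (8.96%) were lower. The split depended on scaling: RLE factors gave 1587 higher and 849 lower, and upper-quartile factors gave 1080 higher and 1441 lower. F1 and F3 log2 fold changes had the same sign in 2381 of the 2388 called genes, a share the average itself favours, and in 7381 (65.8%) of all genes tested. With each generation fitted alone, 79 of the 2388 passed an FDR of 0.05 in both, 1365 in 1 and 944 in neither. Across all tested genes, which are not independent replicates, the F1 and F3 log2 fold changes correlated with r = 0.50 and rho = 0.43. No control animals are shared between these 2 comparisons.

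The shared effect was mostly modest and was larger in F1. The median absolute average log2 fold change was 0.28 among called genes and 0.12 among all tested genes. Only 102 called genes reached an absolute log2 fold change of 1, 52 of them higher and 50 lower. Among called genes the median absolute log2 fold change was 0.36 in F1 and 0.21 in F3, and 1990 of them (83.3%) moved further in F1. Calls were more frequent among abundant genes: with the tested genes in 4 equal bins of mean level, 32.5% of the most abundant bin were called, 724 of them higher and 188 lower, against 14.1% of the least abundant bin, where 133 were higher and 263 lower. Without F1 Control 1 and F1 Control 4, 1521 genes were called, 970 higher and 551 lower, of which 1457 were also called with all animals.

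**Figure D1:**
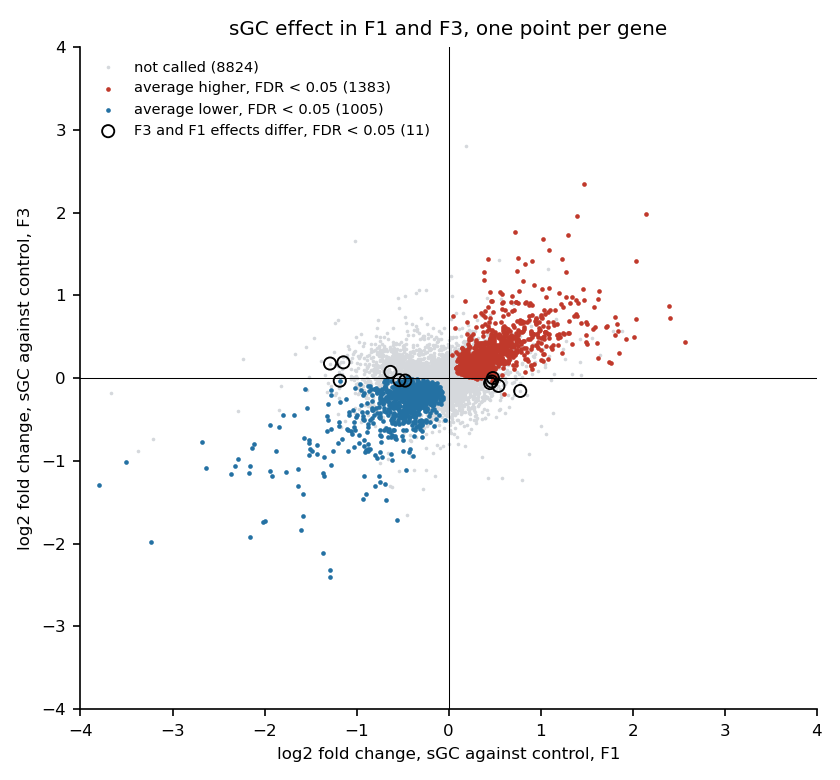
Log2 fold change of sGC against control animals in F1 (horizontal axis) and F3 (vertical axis), 1 point for each of 11212 genes; colours mark the 1383 genes called higher and the 1005 called lower on average, and rings the 11 genes whose effects differ between generations. Called genes fill the lower left and upper right of the plot, with F1 changes generally larger than F3 changes, and the rings sit near 0 on the F3 axis.

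In 458 genes (4.08% of those tested) the animals did not overlap in either generation, with every sGC animal above every control (341 genes, 3.04%) or below every control (117 genes, 1.04%). All 458 were among the called genes, and only 5 further genes separated the animals in both generations but in opposite directions. The genes named next were taken from these 458 by the size of the smaller of their F1 and F3 changes, so their values are a description of the top of the list.

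PAPPA2, a protease that cleaves insulin-like growth factor binding proteins, was among the genes with the largest shared increase. Its level was 3.77, 1.61, 0.78 and 0.767 CPM in F1 controls 1 to 4 and 5.62, 4.89, 6.52 and 11.97 CPM in F1 sGC animals, and 1.33, 1.55, 1.03 and 1.85 CPM in F3 controls and 5.09, 2.40, 3.36 and 4.68 CPM in F3 sGC animals. The average log2 fold change was 1.74 ± 0.31 (SE; n = 8 sGC and 8 control animals, FDR = 0.00126). These are low levels, and the CD247 gene (T-cell receptor zeta chain) was lower still, at 1.55, 1.61, 1.28 and 0.976 CPM in F1 controls against 5.27, 3.48, 2.07 and 2.47 CPM in F1 sGC animals, and 1.28, 0.515, 0.387 and 0.556 against 1.98, 1.68, 4.02 and 1.68 CPM in F3, with a log2 fold change of 1.49 ± 0.28 (FDR = 0.00162). In CD247, 1 F3 sGC animal lay far above the other 3.

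Several abundant neuronal genes were higher in both generations by similar amounts. NRIP3, which encodes a nuclear receptor interacting protein, was measured at 655, 673, 466 and 472 CPM in F1 controls and 1161, 978, 1028 and 1655 CPM in F1 sGC animals, with 315, 149, 246 and 190.0 CPM in F3 controls and 515, 508, 351 and 545 CPM in F3 sGC animals. The log2 fold change of NRIP3 was 1.09 in F1 and 1.09 in F3 (average 1.09 ± 0.15, FDR = 0.000379), although its level was lower in the F3 table as a whole. VSNL1, a neuronal calcium sensor of the visinin family, rose from 837, 719.5, 662 and 743 CPM to 1330.2, 1110.0, 1245 and 1613 CPM in F1 and from 647, 461, 336 and 544 CPM to 940.5, 1064, 970.0 and 774 CPM in F3 (average log2 fold change 0.88 ± 0.11, FDR = 0.000259). NPTX1, a secreted pentraxin that gathers AMPA receptors at synapses, rose by 1.05 ± 0.18 (FDR = 0.00116), and its relative Nptx2 rose by 1.04 ± 0.16 (FDR = 0.000472) on the log2 scale. For Nptx2 the F1 animals overlapped, with F1 Control 1 at 121 CPM above F1 Beta 3 at 107 CPM.

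The other genes in this group covered several functions. FAM20A, a pseudokinase partner of a secretory pathway kinase, rose by 1.27 ± 0.21 (FDR = 0.000775), and HS3ST2, a sulfotransferase that modifies heparan sulfate chains, by 1.23 ± 0.20 (FDR = 0.00071). CYP26A1, an enzyme that degrades retinoic acid, was at 36.1, 21.98, 12.3 and 14.6 CPM in F1 controls and 40.03, 37.6, 41.6 and 104 CPM in F1 sGC animals, with 1 F1 sGC animal far above the other 3. Its F3 values were 27.4, 11.7, 27.4 and 12.4 CPM and 32.4, 39.96, 35.2 and 44.1 CPM. C2orf40, CTXN3, PKP1 and CDHR1 completed the list, with average log2 fold changes of 1.35, 1.13, 1.21 and 1.12. Among these, PKP1 is a protein of cell junction plaques and CDHR1 a cadherin-related protein first known from photoreceptors. All 12 genes stayed past FDR 0.05 when any 1 of the 16 animals was left out, and also without F1 Control 1 and F1 Control 4.

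**Figure D2:**
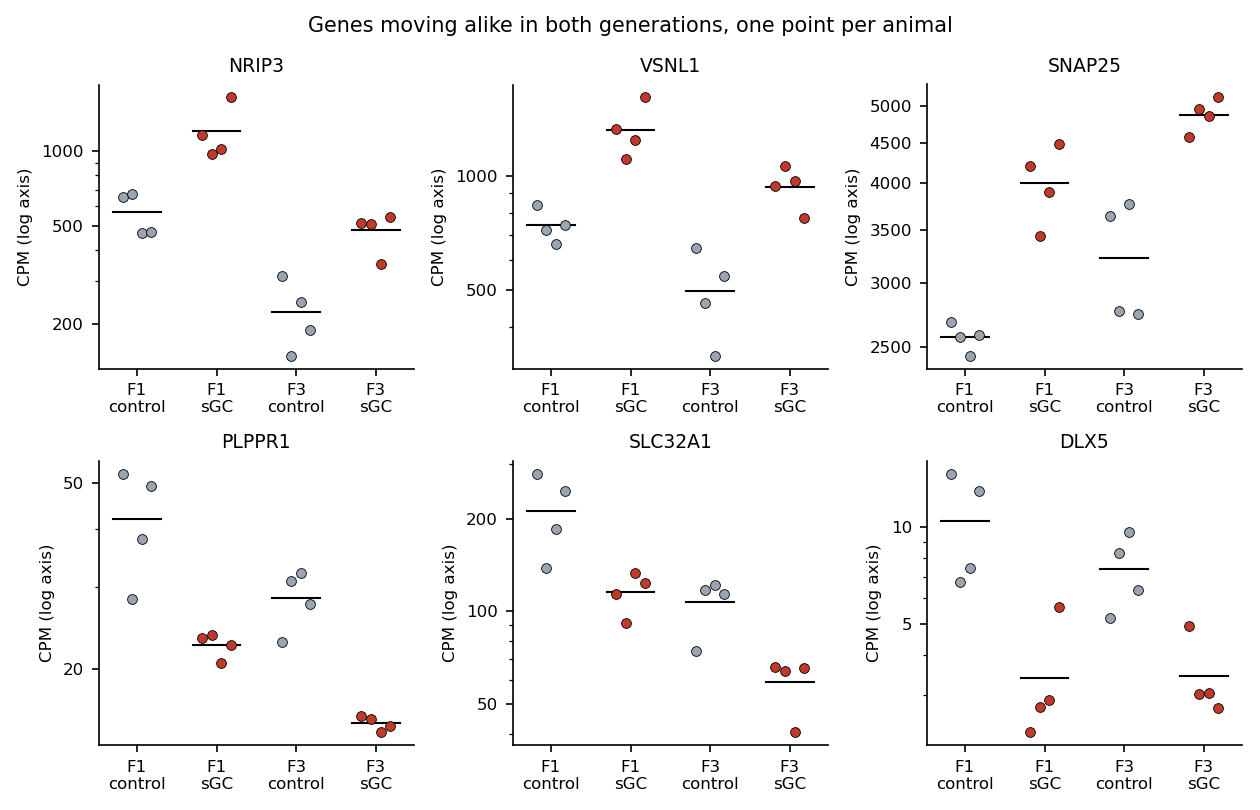
CPM (log axis) of 3 genes that were higher (NRIP3, VSNL1, SNAP25) and 3 that were lower (PLPPR1, SLC32A1, DLX5) in sGC animals, with 1 point per animal and a bar at the group mean; grey is control and red is sGC, 4 animals per group. In each panel the sGC animals of a generation lie wholly above or wholly below the controls of the same generation.

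Among the genes lower in both generations, several belong to GABAergic neurons. SLC32A1, the transporter that loads GABA into vesicles, was at 279, 138, 185 and 246 CPM in F1 controls and 114, 91.9, 133 and 124 CPM in F1 sGC animals, and at 74.2, 117, 122 and 114 CPM and 65.8, 64.2, 40.5 and 65.2 CPM in F3. The average log2 fold change was -0.87 ± 0.15 (FDR = 0.00096). DLX5, a homeobox factor of GABAergic neurons, fell from 14.7, 6.74, 7.45 and 12.96 CPM to 2.29, 2.74, 2.89 and 5.61 CPM in F1 and from 5.22, 8.31, 9.67 and 6.36 CPM to 4.92, 3.01, 3.03 and 2.72 CPM in F3 (average -1.36 ± 0.23, FDR = 0.000864). Both genes are also expressed by striatal neurons, and striatal markers were lower in sGC animals as well (their values are given with those markers). Without F1 Control 1 and F1 Control 4, SLC32A1 had a log2 fold change of -0.71 (FDR = 0.00664) and DLX5 of -1.09 (FDR = 0.00437).

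PLPPR1, a phospholipid phosphatase related membrane protein of growing neurites, had the lowest FDR of the 12 genes named lower. Its level was 52.4, 28.2, 38.03 and 49.4 CPM in F1 controls against 23.2, 23.6, 20.6 and 22.5 CPM in F1 sGC animals, and 22.9, 30.9, 32.2 and 27.5 CPM against 15.8, 15.6, 14.6 and 15.1 CPM in F3. The change was nearly equal in the generations, at -0.90 in F1 and -0.89 in F3 (average -0.90 ± 0.11, FDR = 0.000145). TPD52L1, of the tumor protein D52 family, had the largest shared fall by the ranking used, from 101, 27.4, 48.3 and 100.3 CPM to 14.3, 14.95, 19.1 and 25.3 CPM in F1 and from 21.2, 39.8, 45.8 and 31.8 CPM to 15.1, 18.8, 11.9 and 14.9 CPM in F3 (average -1.55 ± 0.26, FDR = 0.000863). SEMA3F, a secreted axon repellent, changed by -1.22 ± 0.21 (FDR = 0.00111), and DOC2B, a calcium sensor of vesicle release, by -0.93 ± 0.14 (FDR = 0.000555). The remaining genes were C9orf116 (-1.16), MCOLN3 (-1.12), PCK2 (-1.18), MESDC1 (-0.89), PRKCH (-0.84) and EXPH5 (-1.18). PCK2 is the mitochondrial form of the enzyme phosphoenolpyruvate carboxykinase, MCOLN3 an endolysosomal cation channel and PRKCH a protein kinase C. MCOLN3 and PCK2 had few reads, 4 to 85 and 9 to 125 per animal. All 12 genes kept an FDR under 0.05 in each of the 16 fits with 1 animal left out, and without the 2 controls rich in striatal RNA.

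Gene lists written from general knowledge were then counted, 38 in number. The shares over all genes given beside them do not allow for the level of a gene. In the most abundant bin of 2803 genes, 724 were called higher and 188 lower. Most genes of synaptic vesicle release were called. Of 37 members tested, 22 rose and 2 fell (beside 12.3% of all genes higher and 8.96% lower), with a median log2 fold change of 0.37 (0.45 in F1 and 0.29 in F3) beside -0.02 over all genes, and 14 members had every sGC animal above every control in both generations, beside 3.04% of all genes. Averaged over the list, log2 levels of the F1 sGC animals were 0.30 to 0.53 above the mean of their controls, whose own range was -0.14 to 0.21. The F3 sGC animals were 0.22 to 0.32 above theirs, and the F3 controls ranged from -0.10 to 0.12. Neither generation's groups overlapped.

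SNAP25, the membrane SNARE protein of vesicle fusion, was the most abundant of the release genes named. It was measured at 2686, 2573, 2435 and 2586 CPM in F1 controls and 4202, 3437, 3907 and 4485 CPM in F1 sGC animals, and at 3637, 2771, 3769 and 2743 CPM in F3 controls and 4571, 4951, 4860.0 and 5125 CPM in F3 sGC animals (average log2 fold change 0.62 ± 0.07, FDR = 0.000145). The vesicle protein synaptophysin (SYP) rose by 0.46 ± 0.05 (FDR = 0.000111), the active zone scaffold RIMS1 by 0.50 ± 0.06 (FDR = 0.000145) and NAPB, which helps to take used SNARE complexes apart, by 0.46 ± 0.05 (FDR = 0.000145). Further members with non-overlapping animals included STX1A (0.80), RPH3A (0.73), SV2B (0.80), BSN (0.58) and SYT1 (0.54), as average log2 fold changes. The 2 members that fell were DOC2B (-0.93) and SV2C (-0.95), the latter a vesicle protein abundant in the basal ganglia. The count was again 22 higher without F1 Control 1 and F1 Control 4, with 1 lower (1 also without F1 Control 1, F1 Beta 1 or F3 Control 3 alone).

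**Figure D3:**
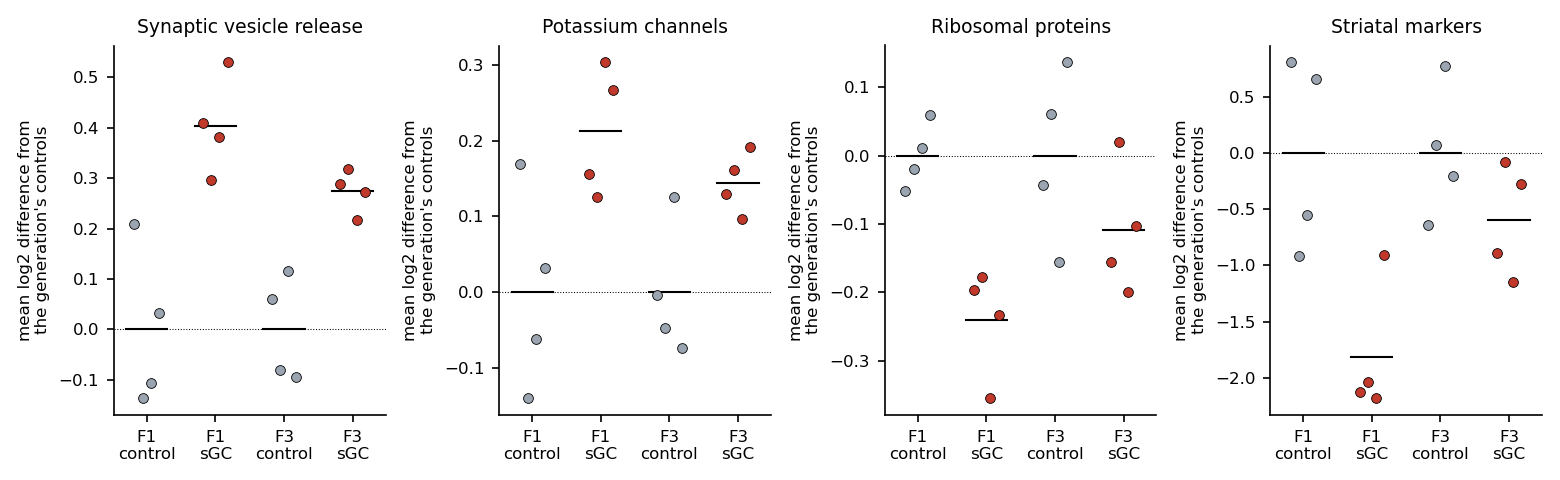
Mean over a list's genes of the log2(CPM + 1) difference from the control mean of the same generation, for synaptic vesicle release (37 genes), potassium channels (44), cytosolic ribosomal proteins (48) and striatal markers (14), with 1 point per animal and a bar at the group mean. The vesicle release genes separate sGC (red) from control (grey) animals in both generations and the ribosomal protein genes only in F1. The potassium channel and striatal lists overlap in both generations.

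Ion channel genes were also called higher more often than lower. Among 44 potassium channel subunits and partners, 20 rose and 1 fell (KCNJ2, -0.42; 0 fell without F1 Control 1 and F1 Control 4, and 2 or 3 without F1 Control 2, F1 Beta 2 or F3 Beta 4), with a median of 0.18, and 7 had every sGC animal above every control in both generations. Over all genes these shares were 12.3% higher, 8.96% lower and 3.04% without overlap. Averaged over the potassium channel list, the sGC and control animals overlapped in both generations. KCNJ3, a subunit of the G-protein-gated inward rectifier, was at 62.5, 49.2, 44.6 and 49.5 CPM in F1 controls and 109, 93.5, 102 and 132 CPM in F1 sGC animals, and at 46.4, 34.3, 55.7 and 28.8 CPM and 60.1, 60.3, 79.6 and 63.4 CPM in F3 (average 0.88 ± 0.13, FDR = 0.00047). Its partners KCNJ9 and KCNJ6 had average log2 fold changes of 0.34 and 0.75. The calcium-activated channel gene KCNMA1 rose by 0.50, and KCNIP3, an accessory protein of A-type channels, by 0.42 ± 0.06 (FDR = 0.000286). Of 27 sodium, calcium and related cation channel genes, 9 rose and 2 fell, beside the same shares over all genes (8 rose and 0 fell without F1 Control 1 and F1 Control 4; 4 fell without F1 Control 2, and 1 without F1 Control 4 or F1 Beta 1). SCN8A, a sodium channel of the axon initial segment, rose by 0.56 ± 0.09 (FDR = 0.000649). CACNA1C, a pore subunit of L-type calcium channels, fell by 0.37 on the log2 scale.

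More GABA-A receptor subunits rose than fell, while the genes that make and load GABA fell. Of 11 GABA-A receptor subunits tested, 5 rose, among them GABRA3 and GABRB2 (0.36), and 2 fell (GABRA2 and GABRG1), beside 12.3% of all genes higher and 8.96% lower. In the fit without F1 Control 1 and F1 Control 4, 4 rose and 1 fell. GABRA3 was at 290.3, 249.6, 250.4 and 252 CPM in F1 controls and 462, 448, 365 and 407 CPM in F1 sGC animals, with 197, 162, 168 and 154 CPM and 261, 236, 269 and 199 CPM in F3 (average 0.60 ± 0.07, FDR = 0.000184). The GABRA3 animals did not overlap in either generation. GABRA2 fell by 0.31 on the log2 scale, with an FDR of 0.0319, its animals overlapped, and it was called in 8 of the 16 fits with 1 animal left out. GABRG1 was also lost in some of these, and 0 of the 11 subunits were called lower without F1 Control 3, F1 Control 4, F1 Beta 4 or F3 Control 2.

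On the presynaptic side of inhibition, 6 of 17 interneuron genes fell and 3 rose, beside 8.96% of all genes lower and 12.3% higher. The GABA-synthesizing enzyme GAD2 fell from 317, 233, 285 and 322 CPM to 182, 206, 192 and 182 CPM in F1 and from 151, 197, 207 and 185 CPM to 129, 119.8, 125 and 149 CPM in F3, with no overlap (average -0.55 ± 0.08, FDR = 0.000316). GAD1 (-0.40), the homeobox factors DLX5 (-1.36) and DLX2 (-0.80), SLC32A1 (-0.87) and SOX6 (-0.19) were the other genes that fell. Striatal neurons also express GAD2, GAD1 and DLX2. The interneuron genes that rose were parvalbumin (PVALB, 0.87 ± 0.20, FDR = 0.00582) and the potassium channel KCNC2 (0.67), both of fast-spiking cells, and CHRNA2 (0.68). CHRNA2 was near the floor, at a mean of 1.37 CPM. PVALB levels overlapped in F1, where sGC animals ranged from 53.8 to 194 CPM and controls from 60.2 to 85.9 CPM. Under RLE factors and without the 2 controls rich in striatal RNA, 4 interneuron genes were called lower, and 3 were called higher in both.

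Striatal markers were lower in sGC animals of both generations. Of 14 measured, 10 fell and 0 rose (0 at an unadjusted p under 0.05, and 0 by DESeq2 and by the likelihood ratio test), with a median log2 fold change of -1.16 (-1.54 in F1 and -0.73 in F3). Over all genes, 8.96% were called lower and 12.3% higher. Their summed level was 1250 to 4377 CPM in F1 controls and 715 to 1210 CPM in F1 sGC animals, and 781 to 1778 CPM in F3 controls and 515 to 952 CPM in F3 sGC animals, so the F3 groups overlapped. PENK, which encodes the enkephalin precursor, had 490.2, 131, 186 and 458 CPM in F1 controls and 79.6, 23.6, 43.3 and 100.1 CPM in F1 sGC animals, and 39.3, 115, 155 and 83.5 CPM and 36.6, 69.1, 22.5 and 46.3 CPM in F3 (average -1.77 ± 0.40, FDR = 0.00558). F1 Control 1 and F1 Control 4 carried the highest PENK values by a wide margin. ADCY5, the adenylyl cyclase of striatal neurons, was the only member without overlap in both generations, at -0.86 ± 0.15 (FDR = 0.00133), beside 1.04% of all genes below every control in both. DRD1, the D1 dopamine receptor, changed by -0.61 ± 0.17 (FDR = 0.0205). Without the 2 high F1 controls 5 of the 14 were called lower, and the median over the list of the F3 minus F1 difference was 0.13 instead of 0.75. Whether the striatal RNA had a part in other changes was not tested.

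A few neuropeptide genes fell, of which PENK and TAC1 are also on the striatal list. Of 14 measured (median -0.13), NTS, TAC1, Pdyn and PENK fell and 0 rose by the quasi-likelihood test (2 rose at an unadjusted p under 0.05, and 2 were called higher by DESeq2 and by the likelihood ratio test). These counts stand beside 8.96% of all genes called lower and 12.3% called higher. NTS had few reads, 4 to 161 per animal. Pdyn, the dynorphin precursor, was at 107, 35.02, 43.6 and 82.1 CPM in F1 controls and 17.6, 26.8, 12.4 and 32.7 CPM in F1 sGC animals, and at 15.3, 65.4, 54.4 and 35.9 CPM and 12.6, 18.6, 18.3 and 15.01 CPM in F3 (average -1.49 ± 0.29, FDR = 0.00231). In F3 the only overlap came from F3 Control 1. The same animal stood with the sGC animals for CALB1, a calcium-binding protein of upper layer pyramidal cells and of interneurons, at 23.99, 96.8, 92.1 and 54.3 CPM in F3 controls and 18.2, 24.8, 21.1 and 19.5 CPM in F3 sGC animals, beside 164, 41.9, 71.5 and 130.2 CPM and 34.5, 36.2, 26.97 and 38.9 CPM in F1 (average -1.62 ± 0.28, FDR = 0.000984). F3 Control 1 also had the highest myelin sum of the F3 controls, 9928 CPM. The highest Pdyn and CALB1 values were those of the 2 controls rich in striatal RNA. Without these 2 controls the average log2 fold change was -1.17 for Pdyn (FDR = 0.0167) and -1.30 for CALB1 (FDR = 0.00821). Whether striatal RNA had a part in the fall of Pdyn or CALB1 was not tested.

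The calls among cortical layer genes were partial, and stand beside 12.3% of all genes called higher and 8.96% called lower. Of 12 upper layer genes, 6 of which had a positive log2 fold change in F1, 6 fell, among them CALB1, WFS1 (-0.61) and CUX1 (-0.33), and 1 rose. No upper layer gene was called higher when F1 Control 2, F1 Control 3, F1 Control 4, F1 Beta 4, F3 Control 2 or F3 Control 4 was left out. Of 13 deep layer genes, 4 rose and 0 fell (0 at an unadjusted p under 0.05 and 0 by DESeq2; 1 without F1 Beta 3). Those that rose were CRYM (0.87 ± 0.17, FDR = 0.00277), RXFP1 (1.02), FEZF2 (0.96), a factor that specifies subcortically projecting neurons, and NR4A2 (0.72). None of the 4 separated the animals in both generations. Without F1 Control 1 and F1 Control 4, FEZF2 (FDR = 0.0535) and NR4A2 (FDR = 0.0739) were lost, and NR4A2 was called in 7 and FEZF2 in 13 of the 16 fits with 1 animal left out. In number, 2 deep layer genes were called higher without F1 Control 3, without F1 Control 4, and without F1 Control 1 and F1 Control 4 together. In the last of these fits 5 upper layer genes were called lower.

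**Figure D4:**
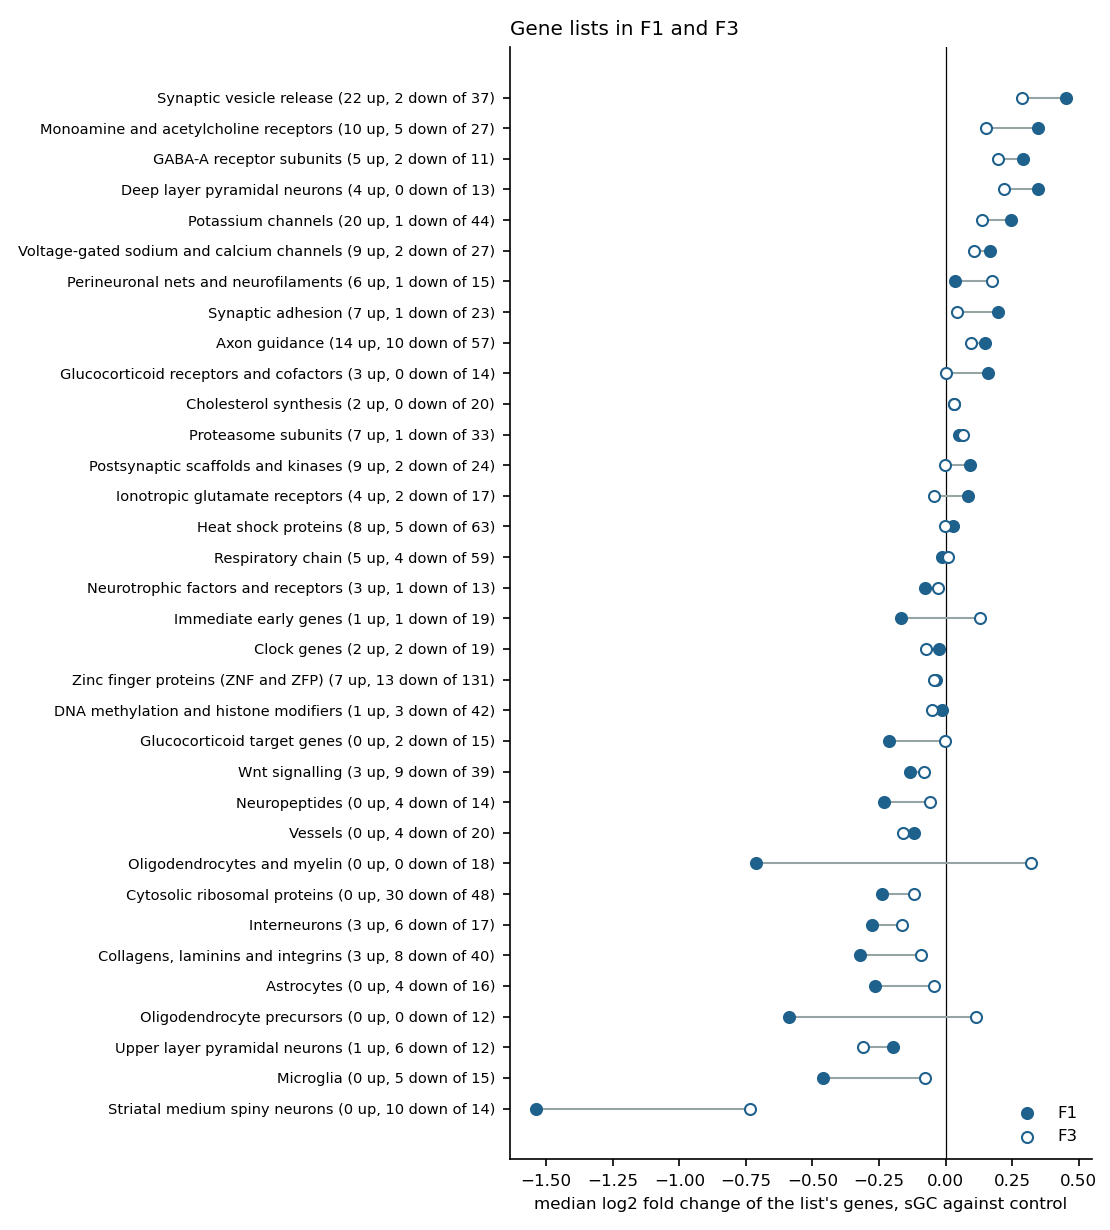
Median log2 fold change of sGC against control animals over the genes of each list with at least 10 genes tested, in F1 (filled) and F3 (open), with the number of genes called higher and lower on average beside each name. Most lists have F1 and F3 medians on the same side of 0; the oligodendrocyte and precursor lists lie at -0.71 and -0.59 in F1 and at 0.32 and 0.11 in F3.

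On the receiving side of the synapse the changes were more mixed. Of 24 postsynaptic scaffold and kinase genes, 9 rose and 2 fell, beside 12.3% and 8.96% of all genes. CAMK2G, a subunit of the calcium and calmodulin dependent kinase, was at 508, 398, 373 and 421 CPM in F1 controls and 688, 591, 705 and 865 CPM in F1 sGC animals, and at 356, 287, 320.3 and 298 CPM and 477, 525, 511 and 525 CPM in F3 (average 0.72 ± 0.08, FDR = 7.93e-05). PPP3CB, a catalytic subunit of calcineurin, rose by 0.41 and CAMK2D by 0.51, whereas the scaffold genes SHANK3 (-0.48) and DLGAP3 (-0.43) fell. Of 17 ionotropic glutamate receptor subunits, 4 rose, including GRIA3 (0.35), GRIN1 (0.31) and GRIN2A (0.60), and 2 fell (3 and 1 without F1 Control 1 and F1 Control 4). Only 1 subunit was called lower when any of 13 single animals (all but F1 Control 2, F1 Beta 3 and F3 Control 1) was left out. Of 4 metabotropic receptors, GRM2 rose (0.84 ± 0.24, FDR = 0.021). Synaptic adhesion genes had 7 of 23 higher and 1 lower (CNTN5, -1.18; 0 to 3 lower with 1 animal left out, and 6 higher and 0 lower without F1 Control 1 and F1 Control 4). Those higher included SLITRK1 (0.51), LRFN2 (0.62) and CBLN2 (1.33).

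Receptors of the modulatory transmitters were also higher more often than lower, with 10 of 27 higher and 5 lower (12.3% and 8.96% of all genes) and a median of 0.28. The muscarinic receptor CHRM3 rose by 0.76 ± 0.14 (FDR = 0.0015) without overlap in either generation, CHRM2 by 0.46, and the nicotinic subunits CHRNA4 and CHRNA5 by 0.64 and 0.68. Leaving out F1 Control 1 and F1 Control 4 gave 7 higher and 1 lower. Neurofilament genes rose, as NEFL (0.52), NEFH (0.75) and INA (0.26) did among the 6 that rose of 15 genes of neurofilaments and perineuronal nets, where 1 fell (0 without F1 Control 1 and F1 Control 4). Among 13 neurotrophic genes, GFRA2, a coreceptor for neurturin, rose without overlap. Its level was 52.8, 49.96, 43.1 and 45.7 CPM in F1 controls and 67.2, 76.01, 76.99 and 98.3 CPM in F1 sGC animals, and 26.7, 23.1, 31.7 and 21.4 CPM and 46.4, 48.8, 47.8 and 50.6 CPM in F3 (average 0.82 ± 0.09, FDR = 7.93e-05). NRN1 (1.09) and SORT1 (0.24) also rose and GFRA4 fell (-0.84). Axon guidance genes were split, 14 higher and 10 lower of 57, with EPHA5 (0.50) and NRP1 (0.44) rising and SEMA3F and ROBO1 (-0.35) falling. The number higher was 8 or 9 when F1 Control 3, F1 Control 4, F3 Control 2, F3 Beta 2 or F3 Beta 4 was left out. Beside the neurofilament, neurotrophic and axon guidance counts stand the same 12.3% of all genes higher and 8.96% lower.

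Many cytosolic ribosomal protein genes were lower. Of 48 tested, 30 fell (beside 8.96% of all genes) and 0 rose (0 at an unadjusted p under 0.05, 0 by DESeq2), by a small amount each: the median log2 fold change was -0.18, -0.24 in F1 and -0.12 in F3. RPS16 fell from 54.2, 56.3, 58.7 and 61.8 CPM to 43.5, 47.00, 38.9 and 43.4 CPM in F1 and from 44.9, 51.3, 49.7 and 53.4 CPM to 43.5, 44.4, 38.3 and 48.6 CPM in F3 (average -0.30 ± 0.06, FDR = 0.00293). The F3 animals overlapped for RPS16, and RPL4 and RPS27A were the only ribosomal protein genes without overlap in both generations, at -0.16 and -0.16. The number lower was 25 under RLE and 38 under upper-quartile factors, 19 when F1 Control 3, F1 Control 4 or F3 Control 4 was left out, and 12 without F1 Control 1 and F1 Control 4. Many ribosomal protein genes have processed copies in mammalian genomes, and how such reads were assigned is not given in the sources used here. Among other housekeeping groups, 7 of 33 proteasome genes rose and 1 fell, 5 of 59 respiratory chain genes rose and 4 fell, and 8 of 63 heat shock genes rose and 5 fell. These shares lie near or below the 21.3% of all genes, and without F1 Control 1 and F1 Control 4 they were 2 and 1, 2 and 1, and 4 and 0. The respiratory chain and heat shock counts moved by more than 1.5 times in most of the fits with 1 animal left out.

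Genes tied to glucocorticoid action were called about as often as other genes or less. Of 15 known glucocorticoid targets 0 rose (1 at an unadjusted p under 0.05, 0 by DESeq2) and 2 fell, FAM107A (-0.23, FDR = 0.018) and DDIT4 (-0.31, FDR = 0.0446); without F1 Control 1 and F1 Control 4 their FDRs were 0.0885 and 0.0855, and DDIT4 was called in 5 of the 16 fits with 1 animal left out. Of 14 genes of the receptors and their cofactors, 3 rose (21.4% called, beside 21.3% of all genes; 1 rose without F1 Control 1 and F1 Control 4) and 0 fell (1 at an unadjusted p under 0.05, 0 by DESeq2), namely HSPA8 (0.17), HSP90AA1 (0.15) and NCOA3 (0.29); NCOA3 was called in 5 and HSP90AA1 in 9 of the 16 fits with 1 animal left out. Of 42 genes for DNA methylation and histone modification, 1 rose (KDM1A, 0.15) and 3 fell, including DNMT3A (-0.14) and MBD3 (-0.16), beside 21.3% called among all genes. DNMT3A was called in 4, MBD3 in 13 and KDM1A in 14 of the 16 fits. Zinc finger genes had 13 of 131 lower and 7 higher (15.3% called, beside 21.3% of all genes), with 6 lower and 4 higher without F1 Control 1 and F1 Control 4, and the number higher was between 1 and 4 without F1 Control 2, F1 Control 3, F1 Control 4, F1 Beta 2, F1 Beta 3, F1 Beta 4, F3 Control 2 or F3 Beta 3. Of 39 Wnt pathway genes, 9 fell and 3 rose, with the receptor FZD1 (-0.52) separating the animals in both generations. With F1 Control 1 and F1 Control 4 left out, 7 fell and 1 rose. In number, 5 rose without F3 Control 1 and 1 without F3 Control 4. Immediate early genes had 1 of 19 higher (Nptx2) and 1 lower (JUND, -0.18, called in 7 of the 16 fits), and 2 higher and 0 lower without F1 Control 1 and F1 Control 4. Of 19 clock genes, ARNTL (0.21) and CSNK1E (0.14) rose and CRY1 (-0.33) and PER3 (-0.42) fell, 21.1% called beside 21.3% of all genes (1 in each direction without F1 Control 1 and F1 Control 4). CSNK1E was called in 6 and PER3 in 4 of the 16 fits with 1 animal left out. Of 20 cholesterol synthesis genes, SC5D (0.24) and HSD17B7 (0.42) rose (10% called), and both were lost without F1 Control 1 and F1 Control 4 (FDR = 0.073 and 0.0814).

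Non-neuronal markers called on average were all lower. They comprised 4 of 16 astrocyte genes (25%), 5 of 15 microglia genes (33.3%), 4 of 20 vessel genes (20%), 1 of 6 ependymal genes (16.7%) and the 1 blood gene measured, ALAS2 (-1.01), beside 21.3% of all genes called and 8.96% called lower. ALAS2 was near the floor, at a mean of 0.74 CPM and 1 to 25 reads per animal. When F1 Control 1 and F1 Control 4 were left out, 3 astrocyte, 2 vessel, 0 ependymal and 0 blood genes were called lower. Of 40 extracellular matrix and integrin genes, 8 were lower and 3 higher (5 and 2 without these animals). In F1 and F3 the median log2 fold changes were -0.27 and -0.04 over astrocyte genes and -0.46 and -0.08 over microglia genes. They were -0.33 and -0.05 over ependymal genes and -0.32 and -0.09 over matrix and integrin genes. The F3 change was the larger for vessel genes (-0.12 and -0.16) and for ALAS2 (-0.68 and -1.48). The summed astrocyte level averaged 14390 CPM in F3 controls and 14476 CPM in F3 sGC animals. TYROBP of microglia had log2 fold changes of -0.53 in F1 and -0.13 in F3, and the astrocyte gene NDRG2 -0.47 and -0.09. In both, the F1 change was several times the F3 change, but the difference did not pass the FDR (0.16 and 0.099). The summed microglial level was 365 to 439 CPM in F1 controls and 288 to 317 CPM in F1 sGC animals, without overlap, and 328 to 402 CPM and 349 to 374 CPM in F3, with overlap. The microglia count was 2 or 3 when any of 8 single animals (all but F1 Control 4 of the F1 animals, or F3 Control 4) was left out, and 1 without F1 Control 1 and F1 Control 4.

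A set of 19 genes that the study names was also followed. Of these, GARNL3, NRIP3 and B3GALT2 are named as targets of its PCR check, and the others by their expression. The 19 genes are a part of those the study lists and were picked from these same libraries, so they are not independent evidence of direction. All 19 passed the FDR on average, 7 higher and 12 lower. KRT80 had the largest fall of the 19, from 58.97, 10.04, 17.5 and 47.7 CPM to 6.11, 5.92, 5.34 and 12.9 CPM in F1 and from 8.38, 24.7, 20.2 and 18.5 CPM to 5.88, 6.99, 2.57 and 3.07 CPM in F3 (average -2.04 ± 0.36, FDR = 0.00114). Its highest values were those of F1 Control 1 and F1 Control 4. Without them KRT80 had an average of -1.51 (FDR = 0.00853), and GPR52 fell further, at -1.57. GPR52 and GLRA3, a receptor and a glycine receptor subunit, had larger log2 fold changes in F3 than in F1, at -1.29 and -2.31 for GPR52 and at -1.36 and -2.11 for GLRA3, but neither difference passed the FDR (0.469 and 0.665). SOWAHA (-1.26), ARPP21 (-0.86) and VSTM2L (-0.77) also fell, and F3 Control 1 was the lowest F3 control in each of these. B3GALT2 (0.88), GARNL3 (0.69) and ATP6AP1L (0.76) rose without overlap in either generation. Without F1 Control 1 and F1 Control 4, 17 of the 19 remained called, the exceptions being DRD1 (FDR = 0.0982) and GABRA2 (FDR = 0.0953).

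Few genes passed the FDR for a difference in response between F3 and F1 by the quasi-likelihood test, and their number depended on the test and the animals used. A gene that did not pass is not shown to have responded alike in F1 and F3. By the test of the difference itself, 11 of 11212 genes (0.0981%) passed an FDR of 0.05, against 1770 (15.8%) at an unadjusted p under 0.05. Of the 11, 1 is listed as a date and is not named. In 8 of the 11 the F1 and F3 changes had opposite signs, but in the 10 that are named the F3 change was small and the F3 groups overlapped, while the F1 groups did not. PRIMA1, which anchors acetylcholinesterase to membranes, was at 21.7, 35.3, 30.9 and 27.9 CPM in F1 controls and 11.1, 14.6, 10.1 and 11.6 CPM in F1 sGC animals, and at 34.8, 23.7, 34.6 and 24.5 CPM and 30.2, 35.9, 31.7 and 34.9 CPM in F3. The F1 log2 fold change was -1.29 ± 0.17, the F3 change 0.18 ± 0.15, and the difference 1.46 ± 0.23 (FDR = 0.0314). Only the F1 sGC animals stood apart from the other 3 groups. CHN2, a regulator of the Rac GTPase, showed the same arrangement, with 72.3, 77.9, 62.9 and 67.6 CPM in F1 controls, 29.5, 34.2, 21.9 and 38.2 CPM in F1 sGC animals, 82.8, 67.2, 95.4 and 66.8 CPM in F3 controls and 70.2, 82.9, 70.3 and 81.8 CPM in F3 sGC animals (difference 1.15 ± 0.21, FDR = 0.0495).

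ECEL1, C3orf70, SEC14L1 and PMM2 likewise fell further in F1, with F1 changes of -1.14, -0.53, -0.47 and -0.63 and F3 changes of 0.19, -0.03, -0.03 and 0.07. PMM2, an enzyme of protein glycosylation, also differed in level between the tables, at 215, 164, 173 and 203 CPM in F1 controls and 55.1, 55.9, 54.8 and 57.4 CPM in F3 controls. In the other direction, CRIM1, FILIP1L, PIK3R1 and PAPOLG rose further in F1, with F1 changes of 0.54, 0.78, 0.48 and 0.45 and F3 changes of -0.10, -0.16, -0.00038 and -0.06. PIK3R1, the regulatory subunit of phosphoinositide kinase, was at 281, 245, 261 and 275 CPM in F1 controls and 373, 338, 395 and 376 CPM in F1 sGC animals, against 300.2, 312, 292 and 309 CPM and 301, 306, 310.2 and 297 CPM in F3 (difference -0.48 ± 0.08, FDR = 0.0314). The number of differing genes was unstable: 114 by the likelihood ratio test, 202 by DESeq2 and 369 without F1 Control 1 and F1 Control 4, and it moved by more than 1.5 times without F1 Control 1 (97), F1 Beta 4 (27), F1 Beta 2 (6), F1 Beta 1, F3 Control 1 or F3 Beta 1 (2 each), and F1 Control 3, F1 Control 4, F3 Control 2, F3 Control 4, F3 Beta 2 or F3 Beta 4 (1 each).

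**Figure D5:**
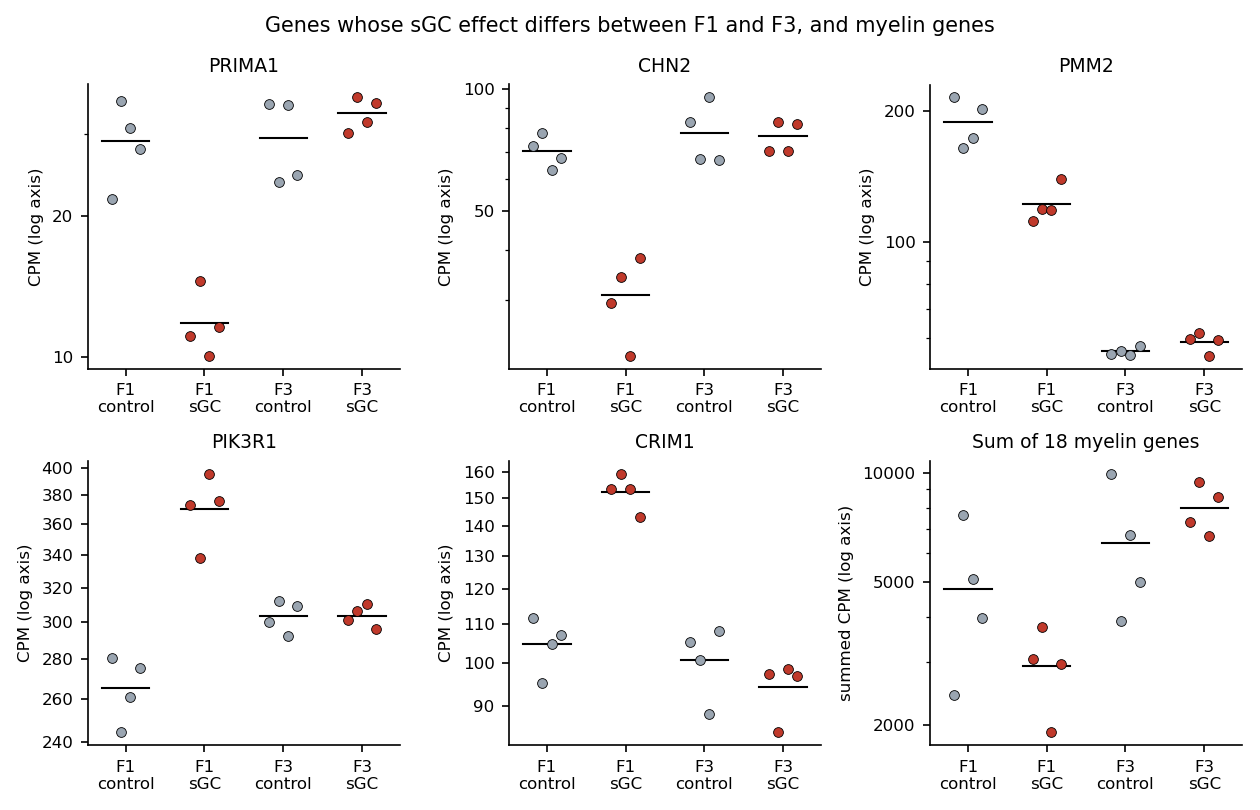
CPM (log axis) of 5 genes whose sGC effect differed between F1 and F3 and the summed CPM of 18 myelin genes, 1 point per animal with a bar at the group mean; grey is control and red is sGC. In the 5 genes the F1 sGC animals lie apart from the F1 controls while the F3 groups overlap; the myelin sums overlap in both generations, with F1 sGC animals at 1915 to 3735 and F3 sGC animals at 6670 to 9442.

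Myelin genes had fold changes of opposite sign in the 2 generations, but no single gene passed the FDR. All 18 genes measured had a negative log2 fold change in F1 (median -0.71) and a positive one in F3 (median 0.32), and 0 were called on average (0 at an unadjusted p under 0.05, 0 by DESeq2 and 0 by the likelihood ratio test). For the difference, 13 of the 18 had an unadjusted p under 0.05 by the quasi-likelihood test (1 of 18 without F1 Control 2), and 0 passed the FDR by this test, the likelihood ratio test or DESeq2. MOG, a protein of the outer myelin surface, had -0.84 in F1 and 0.41 in F3, with an unadjusted p of 0.017 for the difference. The myelin sum ranged widely among controls, from 2428 to 7636 CPM in F1 and from 3890 to 9928 CPM in F3. The 12 precursor genes had medians of -0.59 in F1 and 0.11 in F3. Of these 7 reached an unadjusted p under 0.05 for the difference and 0 passed the FDR, against 2 by the likelihood ratio test, 2 by DESeq2, and 2 without F1 Control 1. Without F1 Control 1 and F1 Control 4, 8 of the 12 precursor genes and 3 of the 18 myelin genes passed; F1 Control 1 had the lowest myelin sum of the F1 controls.

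In the F2 generation, between F1 and F3, the genes called on the average of F1 and F3 had a median change near 0. F2 animals (4 Beta and 4 Control females of the same age) had their own controls, and their effect was taken from a fit of all 24 females. Of the 1371 genes called higher on average and measured in F2, 744 (54.3%) were above 0 in F2, and of 981 called lower, 539 (54.9%) were below 0. Over all genes measured in F2, called or not, 49.7% had the same sign in F2 as on average. The median F2 log2 fold changes of the genes called higher and lower were 0.02 and -0.02, against 0.27 and -0.30 for the average of F1 and F3. By the test of the difference from the mean of F1 and F3, 868 of 11043 genes (7.86%) passed the FDR and 2876 (26.0%) had an unadjusted p under 0.05, and 580 of the 2352 called genes (24.7%) passed the FDR. The calls use the same F1 and F3 values that enter this difference, so the second share is not an independent test.

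The vesicle release genes had a median F2 log2 fold change of 0.01. Of the 24 called members, 14 had the same sign in F2 as on average, near the 54.5% of all called genes. In all, 5 GABA-A receptor genes that were called on average differed in F2, among them GABRA3, with an F2 log2 fold change of -0.33 ± 0.10 and a difference of -0.93 ± 0.12 (FDR = 0.000584). VSNL1 (-0.02 in F2, FDR of the difference 0.00464) and SYP (-0.07, FDR 0.00102) differed likewise. The striatal markers had an F2 median of 0.03, and DRD1 had 0.96 ± 0.25 (FDR of the difference 0.00449). Some genes, chosen after their values were seen, had the same sign in all 3 generations: NRIP3 (0.85 in F2), CALB1 (-1.06), Pdyn (-1.67), RIMS1 (0.47) and CHRM2 (0.42), none of which passed the FDR for a difference (0.609, 0.462, 0.88, 0.902 and 0.886), which does not show that they were equal. The upper and deep layer lists, 2 of the 38, had F2 medians of -0.47 and 0.47, beside F1 medians of -0.20 and 0.35. In F1, 6 of the 12 upper layer genes had a positive log2 fold change. All 7 called upper layer genes and all 4 called deep layer genes had the same sign in F2 as on average.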

How the data were processed

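Total RNA of medial prefrontal cortex punches was poly(A)-selected and sequenced by the authors, who aligned the reads with TopHat2 and tested them with edgeR; the read counter, the genome build and the filter behind the listed symbols are not given in the sources used here. The deposited tables hold whole-number read counts per gene symbol and animal, 1 table per generation of females, beside the authors' own fold changes, p-values and FDRs, which were not used. Tables were joined on symbols, and of the 3 count tables used, F2 entered only the comparison with F2; males were not used here.

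Symbols were kept by filterByExpr (minimum count 10, minimum total 15), scaled by TMM and fitted with edgeR's quasi-likelihood test (edgeR 4.0.16, R 4.3.3) on generation plus treatment over 16 animals; FDRs are Benjamini-Hochberg values over all symbols tested. Generation-specific effects and their difference came from a fit of the 4 group means, and F2 effects from a fit of all 24 females. The limma package (3.58.1) was loaded by edgeR, and DESeq2 (1.42.0) and the likelihood ratio test were alternatives. The tests were tried on simulated counts. No 2 libraries agreed within sampling noise: over 120 pairs the lowest chi-square was 2.88 per symbol. Library depth limits the rarest genes most, and counting error is only part of the spread between animals.

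Named genes were the called genes without overlap in both generations, ranked by the smaller of the F1 and F3 changes (12 higher and 12 lower), the genes differing between F3 and F1, up to 4 called members with the smallest p in each list, and 19 genes that the study names. Of the other names, BSN, CACNA1C, CHRNA2, CNTN5, DLGAP3, DLX2, GABRG1, GAD1, KCNJ2, KCNJ6, KCNJ9, KCNMA1, MOG, RPH3A, RPL4, RPS27A, SHANK3, SOX6, STX1A, SV2B, SV2C and SYT1 were chosen after their values were seen. The members and lists were chosen with earlier results of these data known. Levels are TMM-scaled CPM; symbols listed as dates are not named, and some genes are not reported here.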

Additional observations from a re-analysis of the deposited data

Results flagged for a closer look

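Of 184 groups of 4 animals screened, 12 (6.52%) held 1 animal far from the other 3 by Dixon's test, where chance gives about 1 in 20. In F3 sGC animals these were CD247 in Beta 3 (4.02 CPM), C2orf40 in Beta 4 (12.5 CPM), NPTX1 in Beta 4 (667 CPM), DLX5 in Beta 1 (4.92 CPM), C9orf116 in Beta 1 (2.71 CPM), SLC32A1 in Beta 3 (40.5 CPM) and CRIM1 in Beta 2 (84.3 CPM). SLC32A1 was also apart in F3 Control 1 (74.2 CPM) and PKP1 in F1 Control 1 (10.02 CPM). In F1 Beta 4, CYP26A1 (103.6 CPM), the striatal marker sum (1210.02 CPM) and the ependymal marker sum (73.9 CPM) stood apart.

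The sGC effect differed between F3 and F1 by the test of the difference in 10 named genes. The F3 minus F1 log2 differences were 1.46 for PRIMA1, 1.33 for ECEL1, 1.15 for CHN2, 0.71 for PMM2, 0.51 for C3orf70 and 0.44 for SEC14L1, and -0.93 for FILIP1L, -0.64 for CRIM1, -0.51 for PAPOLG and -0.48 for PIK3R1. Their FDRs lay between 0.0314 and 0.0495, and each was lost in at least 8 of the 16 fits with 1 animal left out.

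Among the 24 genes with the largest shared change, 9 differed in F2 from the mean of F1 and F3, a test that uses the values by which these genes were chosen. The log2 differences were -1.47 for PKP1, -0.93 for CDHR1 and -0.90 for VSNL1, and 1.75 for TPD52L1, 1.33 for DLX5, 1.30 for SEMA3F, 1.28 for EXPH5, 0.81 for SLC32A1 and 0.73 for PRKCH.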

How the results depend on the processing

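The average effect gave 2388 calls, and 2386 to 2732 under the likelihood ratio test, DESeq2, RLE or upper-quartile factors, other low-count filters, all 24 females or the mean of the generations' effects. It gave 1521 (551 lower) without F1 Control 1 and F1 Control 4, chosen after seeing the data, 1052 (720 higher, 332 lower) with an unadjusted p under 0.001 as well, and 79 (72 higher, 7 lower) where each table fitted alone had to pass, which leaves 8 animals a fit. Leaving out 1 animal gave 1763 to 2490 calls (1044 to 1410 higher, 719 to 1096 lower). Upper-quartile factors gave 178 genes with every sGC animal below every control, instead of 117. The F3 minus F1 difference, 11 genes, gave 114 by the likelihood ratio test, 202 by DESeq2, 18 with upper-quartile factors, 46 with all 24 females, 369 without the same 2 controls, and 1 to 97 with 1 animal left out. The F2 difference, 868 genes, gave 289 (without F2 Beta 4) to 1186 (without F1 Control 1) with 1 animal left out, with 314 without F2 Control 3 and 535 without F2 Control 4. The causes were not tested. With the replicate block the counts were 1866, 0 (1653 at an unadjusted p under 0.05) and 567; same-numbered animals correlated from -0.33 to 0.32, so the numbers are not known to pair them. None of the 162 genes named by rule reversed its direction under any alternative run (those named after their values were seen were not refitted one by one), and 374 of the fits of single genes lost their call against 4138 that did not change. The study states that 1 female per litter was used, and the sources used here say no more of how animals of a group relate. Whether animals shared a sire is not given, and 4 animals a group leave small differences undetectable.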
